A study of Mus musculus with 8 samples.

Results

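Snx24 and 9 genes of endosomal sorting were examined in a map of H3K27ac, a histone mark of active promoters and enhancers, in mouse microglia with and without Grn. Grn encodes progranulin, a secreted protein that is carried to lysosomes. The genes were the sorting nexins Snx24, Snx1, Snx2, Snx3, Snx5, Snx6 and Snx27 and the retromer subunits Vps35, Vps26a and Vps29. Every region of the deposited table whose gene symbol equalled one of these was taken, which gave 95 of 129304 regions and 10 of 18707 genes. Symbols in the table name the nearest promoter, so a region counted for a gene may lie in a neighbour. The genes were chosen by symbol, but with the GrnKO to WT difference in H3K27ac of these same libraries in view. That difference is therefore given for them as a description, and no p-values are printed. Calls past a threshold and the choice of regions by smallest p belong to that description and are no independent support.

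PU.1+ nuclei negative for OLIG2 and NEUN were sorted from brains of C57BL/6 mice aged 2 years, either WT or GrnKO. The labels do not name the GrnKO allele. Each replicate pooled nuclei of 2 mice and each genotype had 2 replicates. H3K27ac and an input of unprecipitated chromatin were measured for each. In pooled nuclei, more nuclei carrying the mark and more mark per nucleus cannot be told apart.

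Endosomes sort membrane proteins either towards lysosomes or back to the Golgi and the cell surface. Retromer, a trimer of Vps35, Vps26 and Vps29, selects cargo for retrieval on the endosome. Sorting nexins bind endosomal phosphoinositides through a PX domain. Those with a BAR domain bend the membrane into tubules, and Snx3 and Snx27 are adaptors that link retromer to particular cargo. Snx24 is a small sorting nexin that consists of little more than its PX domain. By retrieving the receptors that deliver lysosomal hydrolases, these routes help to supply the lysosome, on which microglia rely to degrade what they engulf.

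Promoter stretches are shown for 3 members, to set the DNA beside the acetylation described below. Vps26a and Vps29 are retromer subunits, and Snx3 is an adaptor with a promoter acetylated in both genotypes. They come from RefSeq on GRCm38.p6, end at the base before the annotated start and stop where a neighbouring gene is reached. Capitals mark an E-box, the CACGTG motif that the MITF and TFE factors bind, in its extended form TCACGTGA.
Vps26a, chr10:62486806-62487055, minus strand: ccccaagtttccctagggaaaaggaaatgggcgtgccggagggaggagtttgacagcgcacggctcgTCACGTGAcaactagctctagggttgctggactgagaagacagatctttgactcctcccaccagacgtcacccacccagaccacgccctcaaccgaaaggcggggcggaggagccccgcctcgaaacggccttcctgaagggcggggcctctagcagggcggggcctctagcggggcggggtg
Vps29, chr5:122354271-122354327, plus strand: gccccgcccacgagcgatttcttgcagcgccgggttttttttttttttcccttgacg
Snx3, chr10:42501804-42502053, plus strand: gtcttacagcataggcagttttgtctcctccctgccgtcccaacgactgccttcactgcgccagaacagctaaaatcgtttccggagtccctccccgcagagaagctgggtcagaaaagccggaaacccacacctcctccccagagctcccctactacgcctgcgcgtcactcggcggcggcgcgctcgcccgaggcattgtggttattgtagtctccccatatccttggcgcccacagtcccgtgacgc

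The Vps29 stretch is only 57 bases long because the neighbouring gene Rad9b is reached there in the annotation. Windows of 300 bases, with 250 before and 50 after the start, were available for 6 members, and 4 motifs were searched in them on both strands. CACGTG was found in windows of Vps26a and Snx5 and in 7.15% of all 32851 promoter windows. The longer TCACGTGA, which contains CACGTG, was found in Vps26a and in 0.974% of all windows. TGANTCA, the AP-1 motif, and GAGGAAGT, a motif of PU.1, were in none of the members' windows and in 7.81% and 3.20% of all windows. These matches describe the letters of the windows only.

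Library totals ran from 15491642.5 to 20030832 tags for H3K27ac and from 4078179 to 14415969 for inputs. WT replicate 1 had the lowest share of tags in the listed regions, 49.4%, against 63.3% to 65.7% in the other H3K27ac libraries. Values below are tags per 10000000 library tags divided by a TMM factor, which evens out this difference, and are called scaled tags. At the promoter of Grn the highest region held 584.5 and 572.6 tags per 10000000 in WT and 7.34 and 6.49 in GrnKO, so the libraries matched their labels. Y-linked start regions summed to 269.6 and 220.2 tags per 10000000 in the replicate 2 libraries. The WT replicate 1 library had 5.81 there and the GrnKO replicate 1 library 0. The labels give no sex, and the replicate number goes with Y-linked signal in both genotypes. Start regions of 7 of 8 microglial markers summed to 6922 and 7891 scaled tags in WT and to 5957 and 6212 in GrnKO. Those of 2 of 5 neuronal markers stayed at or below 3.91, those of 4 of 5 oligodendrocyte markers ran from 66.3 to 100.5, and those of 2 of 4 border macrophage markers from 227.9 to 288.5. Flt1, the 1 of 3 endothelial markers with a start region, was at 12.5 and 31.4 scaled tags in WT and 144.0 and 144.2 in GrnKO, and S100a8, the 1 of 3 monocyte and neutrophil markers with one, was at 0 and 5.24 against 20.4 and 18.7. The part of these marker differences in the results below was not tested.

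Snx24 carried far more acetylation in GrnKO. Its 29 regions summed to 2205 and 2400 scaled tags in WT and to 4421 and 4458 in GrnKO. Both GrnKO values lay well above both WT values, and the replicates of a genotype lay close together. The means were 2302 ± 138 and 4440 ± 25.9 (SD, n = 2 each), a ratio of 1.93 and a log2 change of 0.95 (SE 0.08). This change exceeded that of 92.8% of the 15380 genes tested, whose median change was -0.05. Without any one library the change was between 0.89 and 1.01. In WT the Snx24 sum already exceeded that of 96.5% of tested genes, and its mean per 800 bp region, 79.4 scaled tags, that of 86.9%.

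The gain at Snx24 lay in a stretch at the start of the gene. It ran over 23893 bp, from 53245140 to 53269033 on chromosome 18 (mm10), and included the promoter and the first part of intron 1 of 6. All 19 regions in it had both GrnKO values above both WT values, as did 27% of all tested regions. Their GrnKO to WT ratios ran from 1.41 to 3.30, with a median log2 change of 1.03. Values there reached from 20.3 to 273 scaled tags in WT and from 57.7 to 539 in GrnKO.

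**Figure D1:**
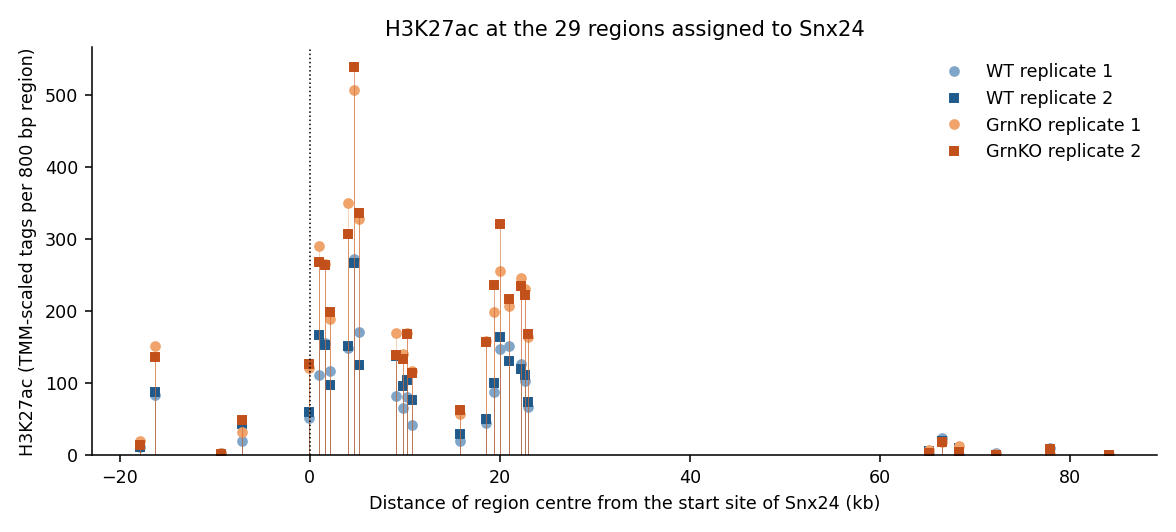
H3K27ac in TMM-scaled tags per 800 bp region at the 29 regions assigned to Snx24, by distance of the region centre from its start site in kb, with 1 point per library. GrnKO points lie above WT points throughout the promoter and the first 23 kb of the gene, and all libraries are at or below 23.9 beyond 60 kb.

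Within the stretch the regions fell into 3 groups separated by gaps of more than 2500 bp. The first spans the promoter and the next 5 kb and holds 7 regions. Its non-overlapping regions summed to 601.1 and 602.6 scaled tags in WT and to 1281 and 1240 in GrnKO, a ratio of 2.09. The WT libraries were nearly identical here and far below both GrnKO libraries.

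The promoter region itself, centred at -122 bp from the start, held 51.6 and 59.7 scaled tags in WT and 121.9 and 126.9 in GrnKO. This is a log2 change of 1.15 (SE 0.23). In the GRCm38.p6 annotation Snx24 starts at 53243933, 1729 bp upstream of the start used here, so there this region lies inside the gene. The most strongly acetylated region of the gene lay at 4666 bp, at 53249928 to 53250728, with 273.0 and 267.1 scaled tags in WT and 507.7 and 539.4 in GrnKO. Its log2 change was 0.95 (SE 0.13), and it was the strongest Snx24 region in both genotypes.

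The other 5 regions of this group all lay in intron 1 and had no overlap between genotypes. The region at 996 bp held 111.5 and 167.4 scaled tags in WT and 290.8 and 269.0 in GrnKO. At 1561 bp WT held 155.6 and 153.2 and GrnKO 265.3 and 263.7, the smallest log2 change of the group at 0.77 (SE 0.16). At 2126 bp WT held 117.3 and 98.2 and GrnKO 188.7 and 199.3. The regions on either side of the strongest one had log2 changes of 1.12 (SE 0.16) at 4060 bp and 1.17 (SE 0.17) at 5178 bp. The first of these held 149.0 and 151.6 in WT and 350.7 and 307.3 in GrnKO, and the second 171.7 and 125.7 against 328.7 and 337.1.

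The second group, 9040 to 10757 bp into the gene, was less even between WT libraries. Its 3 non-overlapping regions summed to 188.9 and 310.1 scaled tags in WT and to 428.0 and 387.4 in GrnKO, a ratio of 1.63. The GrnKO libraries lay above both WT libraries, but WT replicate 1 was well below WT replicate 2. The region at 9040 bp was the 1 region of the stretch that did not pass the threshold, with 81.7 and 137.2 scaled tags in WT, 170.3 and 138.9 in GrnKO and a log2 change of 0.53 (SE 0.24). The regions at 9849, 10263 and 10757 bp did pass, with log2 changes of 0.78 (SE 0.23), 0.87 (SE 0.21) and 1.03 (SE 0.27). The last held 41.5 and 76.5 in WT against 116.8 and 114.7 in GrnKO.

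The third group, 15784 to 22971 bp into the gene, holds 8 regions. Its 5 non-overlapping regions summed to 430.6 and 432.4 scaled tags in WT and to 868.1 and 909.2 in GrnKO, a ratio of 2.06. It held the Snx24 region with the smallest p, at 18488 bp (53263750 to 53264550). There WT had 45.0 and 51.1 scaled tags and GrnKO 159.2 and 157.8, a ratio of 3.30 and a log2 change of 1.71 (SE 0.23). The smallest change of this group was 0.58 (SE 0.18), at 20900 bp, where WT had 151.7 and 131.5 scaled tags and GrnKO 206.8 and 216.6. Its weakest region, at 15784 bp, held 20.3 and 29.6 in WT and 57.7 and 63.2 in GrnKO (log2 change 1.26, SE 0.33).

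At 19400 bp WT held 87.2 and 99.8 scaled tags and GrnKO 198.6 and 236.9, and at 19989 bp, the strongest region of the third group by the mean in both genotypes, WT held 147.0 and 164.2 and GrnKO 256.3 and 321.1. The 3 regions at its far edge, at 22227, 22669 and 22971 bp, had log2 changes of 0.96 (SE 0.17), 1.07 (SE 0.18) and 1.24 (SE 0.21). Many of these regions overlap their neighbours and share tags with them.

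Upstream of Snx24 the log2 changes were below 1.03, the median of the stretch described above. The largest of them exceeded the smallest change in that stretch, 0.53. An intergenic region at -16261 bp held 84.1 and 87.2 scaled tags in WT and 151.3 and 136.6 in GrnKO (log2 change 0.74, SE 0.21). A region at -7116 bp held 20.3 and 43.5 in WT and 32.2 and 49.4 in GrnKO, so the genotypes overlapped. The weaker region at -17813 bp held 11.3 and 11.8 in WT and 19.2 and 14.3 in GrnKO.

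Farther into the gene, from 65127 to 84033 bp past the start, the 6 regions were weak, and 0 passed the threshold. The strongest of them, at 66505 bp, held 23.9 and 19.6 scaled tags in WT and 18.95 and 18.92 in GrnKO (log2 change -0.18, SE 0.43). It was the 1 Snx24 region tested with both GrnKO values below both WT values, as were 25.6% of all tested regions. Of the others, the regions at 68270 and 77884 bp could be tested and overlapped between genotypes. Of the 29 regions, 25 had enough tags to be tested, and the other 4 stayed at or below 7.92 scaled tags in every library.

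Past the threshold, an adjusted p under 0.05 in limma over all 80728 tested regions, were 19 of the 25 tested Snx24 regions as higher and 0 as lower. Of all tested regions 6.8% were higher and 2.92% lower. Since the gene was chosen with this comparison known, nothing is read from the difference. The count fell to 7 without GrnKO replicate 1 and to 8 without GrnKO replicate 2, where 1 library stands for its genotype. The Snx24 sum passed in both of those fits.

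Input chromatin was thin here. Over the 29 regions the inputs held 1.5 and 79 tags in WT and 121 and 23 in GrnKO, and no input value exceeded 28.9 tags per 10000000. In each tested Snx24 region, tags per 10000000, without the TMM factor, were divided by the same pool's input, with 1 added to both. The median ratio was 61.2 ± 10.3 for WT. The same median for GrnKO was 92.4 ± 46.2 (SD, n = 2 libraries a genotype). The genotypes' ratios overlapped. With 5 added instead they did not, at 14.5 and 18.7 in WT against 25.3 and 30.4 in GrnKO. This comparison therefore depends on the added constant. Over all 80728 tested regions the median with 5 added was 5.71 and 5.61 in WT against 5.77 and 7.09 in GrnKO, also without overlap.

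Snx2, a BAR-domain sorting nexin, is the upstream neighbour of Snx24. The 250000 bp on either side of the Snx24 regions held 58 regions in all. The 19 regions past the threshold in this window were all Snx24's. Snx2 had 17 regions, of which 13 were tested and 0 passed the threshold in either direction. Snx24 took 82.5% and 84.0% of the window's tags in WT and 89.4% and 89.7% in GrnKO, counted over non-overlapping regions, and this share does not depend on the scaling between libraries. Snx2 took 15.3% and 14.8% in WT and 9.52% and 9.62% in GrnKO. On the far side, Ppic had 2 regions, both too weak to test, and Prdm6 had 10, of which 2 were tested and 0 passed.

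The 5 genes whose sums were most like Snx24 over the 4 libraries were Arfgap3, Fblim1, Slc7a1, 2700070H01Rik and Tnf. Likeness is the Euclidean distance between log2 sums centred on each gene's own mean, from 0.0586 for Arfgap3 to 0.0753 for Tnf. Tnf, the gene of an inflammatory cytokine, summed to 284.3 and 291.5 scaled tags in WT and 570.2 and 577.0 in GrnKO. Fblim1 summed to 331.6 and 340.5 in WT and 641.2 and 633.5 in GrnKO. Arfgap3, the nearest, had 2 weak regions, summing to 16.0 and 16.8 in WT and 32.0 and 31.6 in GrnKO. Its sum did not pass the threshold. With 4 libraries this measure mostly reflects a change of about the same size with close replicates.

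**Figure D2:**
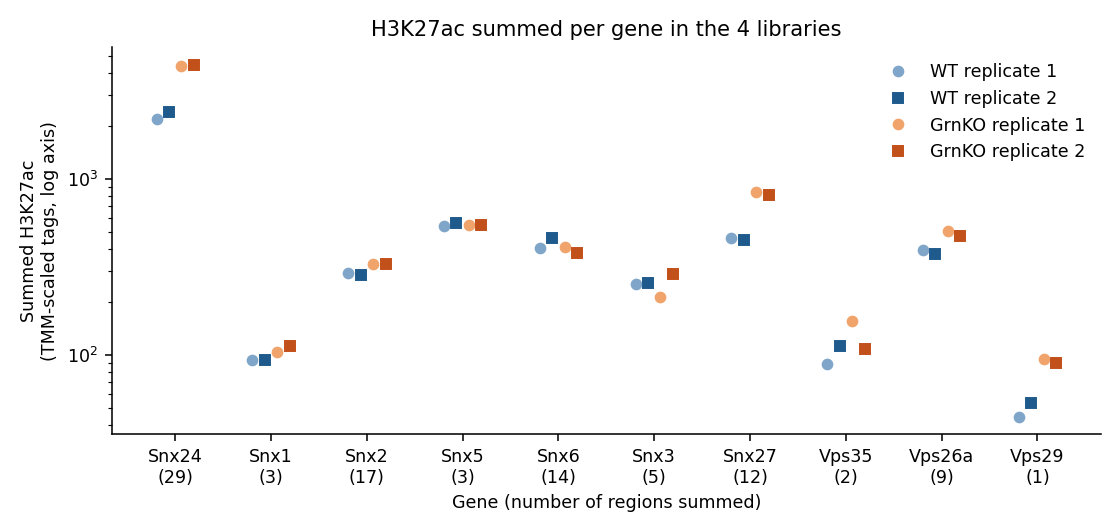
Summed H3K27ac per gene in TMM-scaled tags on a log axis, with 1 point per library and the number of summed regions in parentheses. Snx24, Snx27 and Vps29 have GrnKO points clearly above WT points, whereas those of Snx5 coincide.

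The SNX-BAR sorting nexins Snx1, Snx2, Snx5 and Snx6 form a membrane-bending coat on endosomes. None of the 4 passed the threshold as a gene sum, where 8.6% of all tested genes were higher and 5.88% lower, and neither did any of their 28 tested regions. With edgeR and with DESeq2 0 of these regions passed as well. Snx5 had the highest mean per region of the 10 genes in both genotypes. Its 3 regions summed to 541.6 and 559.4 scaled tags in WT and to 545.0 and 546.3 in GrnKO, a log2 change of -0.01 (SE 0.13). The strongest region, at 421 bp, held 251.5 and 221.8 in WT against 216.9 and 216.2 in GrnKO. The one with the smallest p, at 26 bp, held 82.9 and 127.3 in WT against 123.9 and 121.4 in GrnKO. The table annotates all 3 regions as the promoter of Mgme1, the neighbouring gene.

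Snx2 summed to 294.5 and 285.2 scaled tags in WT and to 330.9 and 328.8 in GrnKO (log2 change 0.19, SE 0.15). The GrnKO sums were the higher ones by a small margin. Its strongest region over the 4 libraries, at 1063 bp, held 53.2 and 69.4 scaled tags in WT and 78.9 and 81.2 in GrnKO. At the promoter region, 45 bp from the start, WT held 66.5 and 57.4 and GrnKO 75.2 and 69.9. Its region with the smallest p, at -17475 bp, held 16.4 and 20.2 in WT and 29.7 and 33.9 in GrnKO.

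Snx1, the usual partner of Snx5 or Snx6 in the coat, was weakly acetylated, with 93.9 and 93.8 scaled tags in WT and 104.1 and 113.0 in GrnKO (log2 change 0.21, SE 0.23). Its strongest region by the mean of WT, in intron 1 at 10353 bp, had 32.5 and 36.4 scaled tags in WT and 35.1 and 42.0 in GrnKO. The overlapping region at 10705 bp was the stronger one by the mean of GrnKO, had the smallest p and held 30.1 and 27.2 in WT against 51.2 and 35.3 in GrnKO. The Snx1 promoter was no stronger than this intron, at 31.3 and 30.1 in WT and 17.8 and 35.8 in GrnKO.

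Snx6, the other partner in the coat, had a sum of 406.3 and 464.1 scaled tags in WT and 411.0 and 381.4 in GrnKO (log2 change -0.13, SE 0.14), with overlapping genotypes. The promoter region at -33 bp was the strongest over the 4 libraries and held 81.3 and 77.3 in WT and 103.0 and 91.4 in GrnKO. An intergenic region at -25200 bp had the smallest p and held 59.4 and 60.2 in WT and 38.5 and 34.8 in GrnKO (log2 change -0.69, SE 0.30). Neither region passed the threshold.

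Snx3, the adaptor for retrieval of the Wnt carrier Wntless, summed to 255.0 and 256.4 scaled tags in WT and to 213.3 and 287.0 in GrnKO. The WT libraries lay between the GrnKO libraries, and the log2 change was -0.05 (SE 0.18). At its promoter, printed above, the region at 55 bp held 93.9 and 109.0 in WT against 75.2 and 111.7 in GrnKO. The region with the smallest p, at 2460 bp, was weak, with 8.22 and 8.90 in WT and 6.50 and 0.924 in GrnKO.

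Snx27, the adaptor with a PDZ domain that returns receptors from endosomes to the cell surface, was higher in GrnKO. Its 12 regions summed to 464.6 and 447.9 scaled tags in WT and to 846.0 and 817.1 in GrnKO. The genotypes were far apart, with a ratio of 1.82 and a log2 change of 0.86 (SE 0.12). All 10 tested regions had a positive change, 8 of them had both GrnKO values above both WT values, and 4 passed the threshold as higher. Over all tested regions these shares were 27% and 6.8%, and nothing is read from the difference.

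Snx27's acetylation lay in 2 places. At the promoter on chromosome 3, the region at 48 bp (94582268 to 94583068) held 100.5 and 80.7 scaled tags in WT and 179.6 and 152.0 in GrnKO (log2 change 0.87, SE 0.21). The region at -420 bp (94582736 to 94583536) held 31.7 and 34.3 in WT and 124.7 and 91.8 in GrnKO, a ratio of 3.28 (log2 change 1.67, SE 0.28). The gain was larger on the upstream side of the start than on the gene side, where the region at 468 bp held 65.3 and 50.8 in WT against 92.2 and 77.3 in GrnKO.

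The strongest region counted for Snx27 lay at -29739 bp, at the end of Tuft1, the next gene. It held 148.2 and 159.8 scaled tags in WT and 235.0 and 270.4 in GrnKO (log2 change 0.71, SE 0.17). Of the 12 regions, 3 lay in or at the end of Tuft1, and 1 intergenic region beside them, at -27125 bp, held 25.4 and 45.3 in WT and 66.2 and 75.0 in GrnKO. Over the 4 regions within 1000 bp of the Snx27 start alone the ratio was 1.93. A weak region at -5438 bp, singled out after its values were seen, held 2.74 and 1.05 in WT and 14.1 and 15.2 in GrnKO. It did not pass the threshold.

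**Figure D3:**
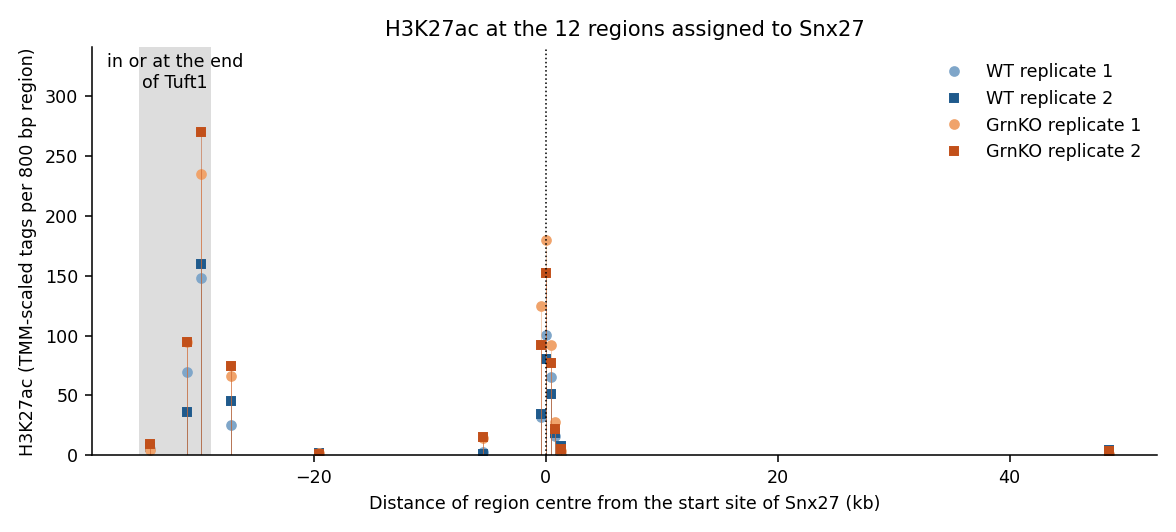
H3K27ac in TMM-scaled tags per 800 bp region at the 12 regions assigned to Snx27, by distance of the region centre from its start site in kb, with 1 point per library and the grey band marking regions in or at the end of Tuft1. GrnKO points are highest at the start site and near Tuft1, where the strongest region reaches 270.4 in GrnKO replicate 2.

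Without GrnKO replicate 1 no single Snx27 region passed the threshold, and without GrnKO replicate 2 only 1 did, while the summed gene passed in both fits. The shallowest input, WT replicate 1, in which 91.3% of all regions held no tag, had 83.4, 83.4 and 76.0 tags per 10000000 at the Snx27 regions at 782, 468 and -420 bp. The other inputs held at most 16.6 at those 3 regions. The part of these input tags in the Snx27 result was not tested.

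In the retromer trimer only Vps29 passed the threshold, as 1 of 3 gene sums and 1 of 10 tested regions. In either direction 14.5% of all tested genes and 9.72% of all tested regions passed, and nothing is read from the difference. Vps29, the small subunit that binds regulators of the complex, had a single region at its start on chromosome 5 (122354152 to 122354952). It held 44.6 and 53.7 scaled tags in WT and 94.8 and 90.4 in GrnKO. The ratio was 1.88 and the log2 change 0.91 (SE 0.26), with no overlap of genotypes. Leaving out either GrnKO library ended the call. DESeq2 ended it for the region, and for the gene sum it ended without the filter on low values and over regions within 1000 bp of a start. The input of WT replicate 1 held 142.2 tags per 10000000 here, more than the 36.8 of its H3K27ac library, while the other inputs held at most 4.81. Its part in the result was not tested. The table annotates the region as the promoter of Rad9b.

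Vps35, the scaffold of the trimer and a gene mutated in familial Parkinson disease, summed to 89.2 and 111.8 scaled tags in WT and to 155.6 and 107.5 in GrnKO (log2 change 0.37, SE 0.25). GrnKO replicate 2 lay within the WT range. Its promoter region held 84.9 and 97.95 in WT and 134.1 and 98.05 in GrnKO. Its other region is annotated as the promoter of Orc6, the neighbouring gene.

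Vps26a, the arrestin-like subunit that contacts cargo adaptors, summed to 395.8 and 377.1 scaled tags in WT and to 509.1 and 474.3 in GrnKO. The GrnKO sums were both higher, but the log2 change of 0.35 (SE 0.14) did not pass the threshold. The strongest region, at -21 bp, held 125.9 and 96.1 in WT against 148.5 and 128.0 in GrnKO. The extended E-box printed above, 182 bases before the start, lies within it. An upstream region at -5065 bp had the smallest p and held 7.83 and 18.9 in WT against 22.3 and 41.5 in GrnKO.

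**Figure D4:**
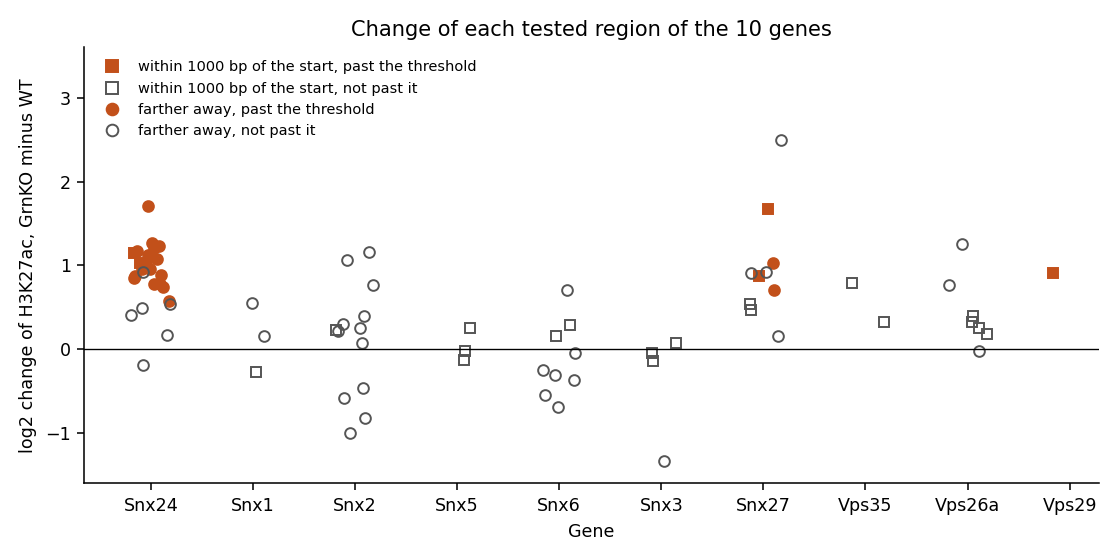
The log2 change of H3K27ac, GrnKO minus WT, for each of the 77 tested regions of the 10 genes, with squares for regions within 1000 bp of the start, circles for others and filled symbols for those past the threshold. Filled symbols appear at Snx24, Snx27 and Vps29 and all lie above 0.

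Altogether 77 of the 95 regions were tested, 24 passed the threshold as higher and 0 as lower, against the 9.72% of all tested regions that passed in either direction. Snx24 contributed 19 of the 24, Snx27 contributed 4 and Vps29 contributed 1. As gene sums 3 of 10 were higher and 0 lower, where 14.5% of all tested genes passed in either direction. Without Snx24 the other 9 genes had 5 of 52 tested regions higher. The 18 untested regions did not exceed 8.48 scaled tags in any library.

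Levels were compared per 800 bp region. In WT the order of the mean per region was Snx5 at 183.5 scaled tags, Snx24 at 79.4, Snx3 at 51.1, Vps35 at 50.3, Vps29 at 49.1, Vps26a at 42.9, Snx27 at 38.0, Snx1 at 31.3, Snx6 at 31.1 and Snx2 at 17.0. Snx3, Vps35 and Vps29 overlapped between WT libraries and have no order, and neither do Snx1 and Snx6. In GrnKO Snx5 was at 181.9 and Snx24 at 153.1, followed by Vps29 at 92.6, Snx27 at 69.3 and Vps35 at 65.8. Vps35 overlapped there with Snx27, with Vps26a at 54.6 and with Snx3 at 50.0.

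Other genes of endosomal sorting were taken from lists written with earlier results of these data known, so their p-values are no independent support, and 75 of 78 were tested as gene sums. Of these 8 were higher and 5 lower in GrnKO, a share of 17.3% against 14.5% of all tested genes, and their median log2 change was 0.05. Each list held estimates of both signs. With the authors' scaling alone, without TMM factors, 9 were higher and 0 lower, so none of the 5 falls described below passed there, and neither did the rises of Snx10 and Lrp1. Only Capza2, Commd8 and Snx8 passed in each of the 4 fits that leave out 1 library. Adjusted p-values in the next paragraphs are from limma over all 15380 genes.

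Among 23 other sorting nexins, 3 were higher and 2 lower, with a median log2 change of -0.05. Snx33, an SH3-domain sorting nexin of endocytosis, rose most, from 62.2 and 45.8 scaled tags in WT to 142.0 and 131.7 in GrnKO (log2 change 1.34, limma adjusted p = 0.00365). Snx8, another BAR-domain member, rose from 246.0 and 210.3 to 446.3 and 446.9 (0.97, limma adjusted p = 0.00103). Snx10, needed for osteoclast function, rose from 884.6 and 791.5 to 1123 and 1081 (0.40, limma adjusted p = 0.0294). Over non-overlapping regions the Snx10 change was 0.19 and did not pass.

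The 2 sorting nexins that fell were Snx13 and Snx22. Snx13, a PX protein that carries an RGS domain, fell from 4874 and 4833 scaled tags to 3888 and 4326 (log2 change -0.24, limma adjusted p = 0.0493). Snx22 fell from 183.4 and 105.3 to 54.9 and 84.7 (-1.02, limma adjusted p = 0.0399). The Snx13 call was lost under most alternatives, among them edgeR, DESeq2 and leaving out either GrnKO library, and its change was -0.02 with the authors' scaling. The Snx22 call was lost with the authors' scaling, with no filter on low values, without WT replicate 1, where the change was -0.62, and without GrnKO replicate 1, where it was -0.71.

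**Figure D5:**
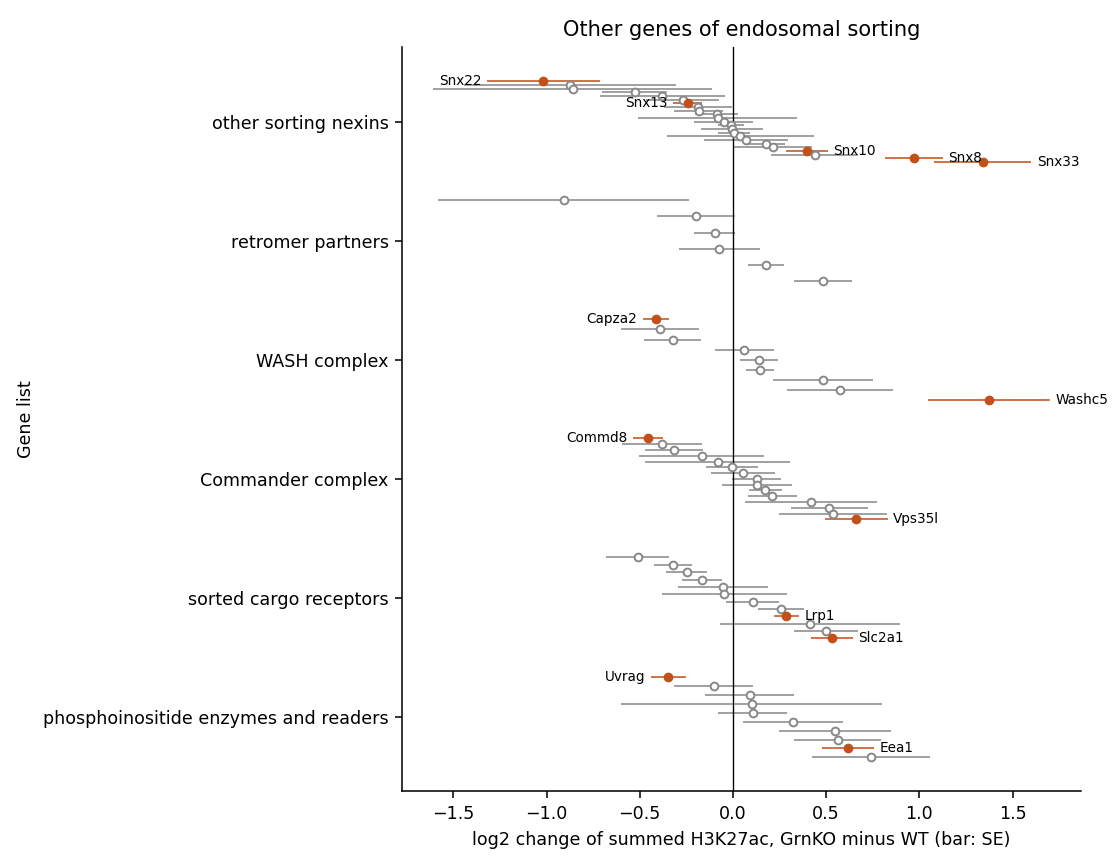
The log2 change of summed H3K27ac, GrnKO minus WT, for the 75 tested genes of 6 lists, with bars for the SE and filled, named points for the 13 genes past the threshold. Each list has points on both sides of 0, and the changes run from -1.02 for Snx22 to 1.37 for Washc5.

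The WASH complex grows actin on endosomes next to retromer, and 1 of its 9 genes rose and 1 fell. Washc5, which encodes strumpellin, rose in its single region from 25.4 and 31.2 scaled tags to 74.4 and 74.8 (log2 change 1.37, limma adjusted p = 0.012). The table annotates that region as the promoter of Nsmce2, and the call was lost without either GrnKO library. Capza2, an actin capping subunit, fell from 6923 and 6638 to 5267 and 4907 (-0.42, limma adjusted p = 0.00137).

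The Commander complex recycles another set of receptors, and 1 of its 15 genes rose and 1 fell. Vps35l, the counterpart of Vps35 in that complex and listed as 9030624J02Rik, rose from 224.1 and 282.6 to 377.6 and 421.5 scaled tags (log2 change 0.66, limma adjusted p = 0.0167). Commd8 fell from 3067 and 3149 to 2245 and 2293 (-0.45, limma adjusted p = 0.00204). Of 6 further retromer partners, 0 passed in the limma fit used throughout or with edgeR, and 1 with DESeq2. Several other limma settings, among them the authors' scaling and array weights, also called 1. The 1 with an unadjusted p under 0.05 in limma was Rab7, the GTPase that recruits retromer, with 337.9 and 273.7 scaled tags in WT and 437.3 and 415.0 in GrnKO (log2 change 0.48, limma adjusted p = 0.0541).

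Of 12 tested receptors and transporters that these routes sort, 2 rose and 0 fell in the limma fit used throughout, and 6 had an unadjusted p under 0.05. EdgeR, a pseudocount of 5, array weights and the fit on promoter-proximal regions each called 1 as lower, and the replicate block and the fit without WT replicate 2 each called 2. Without GrnKO replicate 1, 0 rose and 0 fell. Slc2a1, a glucose transporter that Snx27 recycles, rose from 703.5 and 739.1 to 1081 and 1003 scaled tags (log2 change 0.53, limma adjusted p = 0.00616). Over regions within 1000 bp of its start the change was -0.02. Lrp1, an endocytic receptor, rose from 6109 and 6472 to 7416 and 7938 (0.29, limma adjusted p = 0.0119). Sort1, the progranulin receptor sortilin, had a log2 change of -0.25 and did not pass. Its 2 regions within 1000 bp of the start held 83.7 and 95.9 scaled tags in WT and 42.7 and 49.4 in GrnKO.

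Of 10 tested enzymes and readers of endosomal phosphoinositides, 1 rose and 1 fell. Eea1, a tether of early endosomes, rose from 320.3 and 345.2 to 521.6 and 499.0 scaled tags (log2 change 0.62, limma adjusted p = 0.0094). Uvrag, a partner of the Vps34 kinase, fell from 2120 and 1911 to 1554 and 1611 (-0.35, limma adjusted p = 0.0251).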

How the data were processed

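H3K27ac and input libraries of sorted microglial nuclei were read from 1 table of 129304 regions. As deposited, its signal values are tags per 800 bp region that the authors expressed per 10000000 library tags, per the file headers. The submitters' processing notes name Bowtie2, HOMER, DESeq2 and mm10, and their settings are not given in the sources used here. Distances are from the start sites of the authors' annotation. These lay within 10 bp of the GRCm38.p6 gene table for 6 members, 20 bp away for Snx27 and Vps35, 87 bp for Snx6 and 1729 bp for Snx24. Multiplying by the library totals gave whole read ends, 2 per tag, for 100% of values within 0.0200 read ends; edgeR on these reads called 7785 regions and 2232 genes.

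Members and lists were chosen with earlier results of these data known, and 1 list gene is not reported here. The main test was limma 3.58.1 (R 4.3.3) on log2(value + 1) after TMM scaling (edgeR 4.0.16; factors 0.825 and 1.04 in WT, 1.08 and 1.08 in GrnKO), with genotype as the only term, trended eBayes, a filter on low tags (filterByExpr, minimum 10) and Benjamini-Hochberg adjustment over 80728 regions or 15380 gene sums. A gene sum adds all regions the table assigns to a gene. Alternatives were the authors' scaling, edgeR and DESeq2 1.42.0 on recovered tags, other filters and pseudocounts, array weights and leaving out each library. Fits were tested on simulated data, where most of the changed regions did not pass. Far fewer regions were changed there than were called here, so that share does not carry over to these data. Named are all members, every tested Snx24 region, the strongest and the smallest-p region of other members, and, of the genes past the threshold in each list, up to 3 a direction by p. Sort1, Rab7, the regions of list genes and the other regions of members that are named were chosen after their values were seen. Adding 1 before the log understates the change of low regions. Motifs were chosen after values were seen.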

Additional observations from a re-analysis of the deposited data

How the results depend on the processing

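With the authors' scaling alone, the Snx24 change was 1.17 instead of 0.95, and the median of all genes moved from -0.05 to 0.18. The share of higher regions among those called was then 95.2% instead of 70.0%, and that of genes 90.8% instead of 59.4%. Pathway list genes past the threshold were 9 instead of 13, and the Snx3, Snx5 and Snx6 changes, none past the threshold, became 0.18, 0.21 and 0.09. Over regions within 1000 bp of a start, the Snx24 change was 1.07, 581 genes differed instead of 2226, and Slc2a1 went to -0.0248, the 1 change of sign among values past the threshold. Snx1 and Snx6, not past it, went to -0.27 and 0.23 there. With a pseudocount of 5 the Snx24 ratio to input was 16.6 in WT and 27.9 in GrnKO, since most input values are near 0. These ratios were taken without TMM factors. Leaving out 1 library gave 1335 to 14319 differing regions, 779 to 3716 genes, 7 to 27 member regions and 3 to 23 list genes. The lone library is assumed to vary like the others, and the lowest counts came without GrnKO replicate 1. TMM factors from gene sums, added after seeing the data, gave 2219 genes and the same 3 members. Inputs held no tag in 43.1% to 91.3% of regions, so ratios to input are coarse, and 3 tags, the limit that a count of 0 allows, correspond to at most 1.94 tags per 10000000 in H3K27ac libraries.

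A fit that blocks on the replicate number called 11391 regions, 2841 genes, 26 member regions, 3 member genes and 17 list genes. List genes that were lower went from 5 to 8. The labels do not say that a number marks a shared litter, batch or day, and deviations of same-numbered libraries correlated at 0.034 over regions. Y-linked signal, though, was high in both replicate 2 libraries alone, so the number carries this difference between mice.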
